A study of Mus musculus with 15 samples.

Results

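Vcan, Ncan, Bcan, Cspg5, Ptprz1, Tnr and Tnc encode large matrix proteins of the central nervous system, and their transcripts were followed in the optic nerve after crush. The genes were taken by name from the deposited expression table: all 7 were listed among its 14237 genes, and all 7 were among the 14194 genes tested. Whole optic nerves of adult C57BL/6J mice were sequenced in 3 groups of 5 libraries, numbered 2 to 6 in each group. The sham AAV-null group had an eye injection of AAV2-Null, an adeno-associated virus of serotype 2 without a transgene, and its nerve was exposed but not crushed. The labels do not give the times for the sham operation. The crush AAV-null group had the same vector and a nerve crush 2 weeks later. The crush AAV-CNTF group had an AAV2 vector that expresses a secretable ciliary neurotrophic factor (CNTF), a cytokine, before the same crush. Crushed nerves were collected 7 days after injury. All 3 groups therefore carry an AAV2 injection. The vectors were placed in the vitreous of the eye, so the nerve itself was not injected, and there was no sham group with AAV-CNTF. The sources used here do not give the vector's promoter. Because the nerve was measured in bulk, fewer cells of a type and less RNA per cell cannot be told apart.

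Versican (Vcan), neurocan (Ncan) and brevican (Bcan) are lecticans, chondroitin sulfate proteoglycans that bind hyaluronan at one end and tenascins at the other. Tenascin-R (Tnr) and tenascin-C (Tnc) are multi-armed glycoproteins that cross-link lecticans, and link proteins fasten the lecticans to hyaluronan. Cspg5 encodes neuroglycan C, a membrane-spanning proteoglycan, and Ptprz1 encodes a receptor tyrosine phosphatase whose secreted form is the proteoglycan phosphacan. Astrocytes and cells of the oligodendrocyte lineage make most of these proteins in the brain and optic nerve. The proteins form perineuronal nets around neuronal cell bodies, and on axons the matrix around nodes of Ranvier. Several of them are known to limit axon growth in scar tissue.

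The promoters of the 4 genes that rose after crush are shown because all 4 were higher in both crushed groups than in sham. In RefSeq (GRCm38.p6, the mm10 assembly), 6 of the 7 genes had an entry, and Cspg5 had none. Each sequence is the 250 bases before the RefSeq start, read 5′ to 3′ on the gene's strand. The Ncan sequence ends after 221 bases, where GENCODE M21 starts the transcript. Windows are chr4:64047016-64047265 for Tnc (minus strand), chr8:70120874-70121094 for Ncan (minus strand), chr1:159523519-159523768 for Tnr (plus strand) and chr13:89742513-89742762 for Vcan (minus strand). Tnc has 2 RefSeq starts, and the upstream one was used. Capitals mark matches on either strand to the GC box letters GGGCGG or the TATA box letters TATAAA.
Tnc: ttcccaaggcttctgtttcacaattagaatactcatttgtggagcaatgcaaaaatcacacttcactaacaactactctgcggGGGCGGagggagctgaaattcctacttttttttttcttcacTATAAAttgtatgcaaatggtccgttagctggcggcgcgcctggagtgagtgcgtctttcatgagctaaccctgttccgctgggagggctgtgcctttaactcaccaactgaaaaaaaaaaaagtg
Ncan: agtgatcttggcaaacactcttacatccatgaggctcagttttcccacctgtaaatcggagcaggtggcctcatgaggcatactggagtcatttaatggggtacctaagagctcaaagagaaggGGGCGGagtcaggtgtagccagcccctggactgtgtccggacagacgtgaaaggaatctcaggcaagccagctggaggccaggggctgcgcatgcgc
Tnr: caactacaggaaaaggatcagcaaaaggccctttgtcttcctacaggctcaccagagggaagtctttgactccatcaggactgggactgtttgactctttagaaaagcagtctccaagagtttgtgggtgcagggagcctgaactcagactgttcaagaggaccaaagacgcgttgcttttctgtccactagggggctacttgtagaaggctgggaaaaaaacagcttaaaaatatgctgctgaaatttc
Vcan: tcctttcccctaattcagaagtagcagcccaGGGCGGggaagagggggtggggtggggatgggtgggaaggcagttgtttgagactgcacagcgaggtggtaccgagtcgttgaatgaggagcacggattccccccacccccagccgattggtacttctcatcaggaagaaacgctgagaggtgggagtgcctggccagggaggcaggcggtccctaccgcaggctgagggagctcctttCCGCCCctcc
The Tnr window held neither motif, and the Tnc window held a TATA box 126 bases before the start. GGGCGG was found 2 times in Vcan and 1 time each in Ncan and Tnc, and also in the windows of Bcan (1 time) and Ptprz1 (2 times). That motif is in 33% of the 32536 promoter windows of this length, and TATAAA in 12.3%. The Ncan window before trimming also held TATAAA. The STAT-type letters TTCNNNGAA (7.04% of all windows), the AP-1 letters TGANTCA (6.73%) and the full NFI palindrome (0.0369%) were in 0 of the 6 windows. The motifs do not overlap one another in these windows, and a match is a string of letters, not a measured binding site.

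Library totals over the listed genes ran from 19856688 to 29558293 expected counts. Levels are given as CPM, reads per 1e6 counted in a library after TMM scaling, and differences as log2 fold changes from the quasi-likelihood test of edgeR, adjusted by Benjamini-Hochberg over all 14194 genes with a threshold of 0.05. By that rule 27.6% of all genes differed between crush and sham with AAV-null (14.7% higher, 12.9% lower). Crush AAV-null replicate 6 stood apart from the other libraries on the second principal component. Without it, the log2 fold changes of crush against sham described next were 2.54 for Tnc, 2.11 for Ncan, 1.07 for Tnr and 0.98 for Vcan, all past the threshold. Transcripts of Cntf itself averaged 16.36 CPM in sham, 5.285 in crush AAV-null and 5.637 in crush AAV-CNTF nerves, and since the vector was placed in the eye, nerve RNA is no check of it. The comparisons share libraries: both comparisons with sham use the same sham nerves, and crush AAV-null nerves enter the first comparison and that of AAV-CNTF with AAV-null.

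After crush with AAV-null, 4 of the 7 genes rose and none fell, while Bcan, Cspg5 and Ptprz1 did not pass the test. Tnc rose 6.07-fold, Ncan 4.37-fold, Tnr 2.14-fold and Vcan 1.99-fold. In each of these 4 genes every crushed nerve was above every sham nerve, a separation seen for 10.5% of all genes in that direction, 10.1% in the other and 20.6% in either. The risers were 2 of the 3 lecticans and both tenascins, and neither membrane-spanning proteoglycan was among them.

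Versican is a large lectican of developing and injured tissue. Its gene (ENSMUSG00000021614.16) spans chr13:89655312-89742509 on the minus strand of mm10. Vcan stood at 110.0, 179.6, 125.9, 145.5 and 124.0 CPM in sham replicates 2 to 6. In the crush AAV-null libraries it stood at 296.8, 262.0, 274.5, 244.2 and 288.5 CPM, and in the crush AAV-CNTF libraries at 292.7, 328.4, 263.2, 272.9 and 261.3 CPM. The lowest crushed nerve was thus above the highest sham nerve, and the crushed groups overlapped each other. The log2 fold change against sham was 1.00 ± 0.11 (SE, n = 5 per group, adjusted p = 1.33e-06, edgeR) with AAV-null and 1.05 ± 0.11 with AAV-CNTF (adjusted p = 5.66e-07).

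Neurocan is a lectican known to increase in brain scars. Its gene (ENSMUSG00000002341.8) lies at chr8:70093085-70120873, minus strand. Ncan stood at 33.62, 27.36, 25.92, 32.66 and 27.2 CPM in sham replicates 2 to 6. It reached 195.1, 81.78, 112.8, 118.0 and 133.8 CPM after crush with AAV-null, and 125.5, 66.06, 83.01, 79.62 and 139.7 CPM after crush with AAV-CNTF. Sham libraries were close together, and replicate 3 was the lowest library in each crushed group. The log2 fold change was 2.13 ± 0.21 (SE, adjusted p = 2.40e-07, edgeR) with AAV-null and 1.75 ± 0.21 (adjusted p = 2.02e-06) with AAV-CNTF, each against sham.

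Brevican is the lectican of adult brain and of nodes of Ranvier. Its gene (ENSMUSG00000004892.13) lies at chr3:87987531-88000230, minus strand. Bcan stood at 92.91, 111.1, 87.45, 82.85 and 125.0 CPM in sham replicates 2 to 6, and at 95.78, 76.22, 97.01, 100.8 and 77.61 CPM after crush with AAV-null. These groups overlapped, and the log2 difference was -0.16 (95% interval -0.46 to 0.14, adjusted p = 0.470, edgeR). Its sign turned to 0.11 on the authors' per-length scale, where the test was not passed either (adjusted p = 0.735, limma). After crush with AAV-CNTF, Bcan stood at 69.67, 69.46, 56.53, 48.36 and 84.08 CPM. It fell against sham by 0.61 ± 0.15 on the log2 scale (adjusted p = 0.00292, edgeR), and 4 of 5 libraries were below every sham library. In that comparison 14.3% of all genes fell. The difference between the crushed groups, which is the test of CNTF itself, was -0.45 ± 0.15 (95% interval -0.75 to -0.14) and did not pass (unadjusted p = 0.00601, adjusted p = 0.363, edgeR). In 4 of 5 AAV-CNTF libraries Bcan was below every crush AAV-null library.

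**Figure D1:**
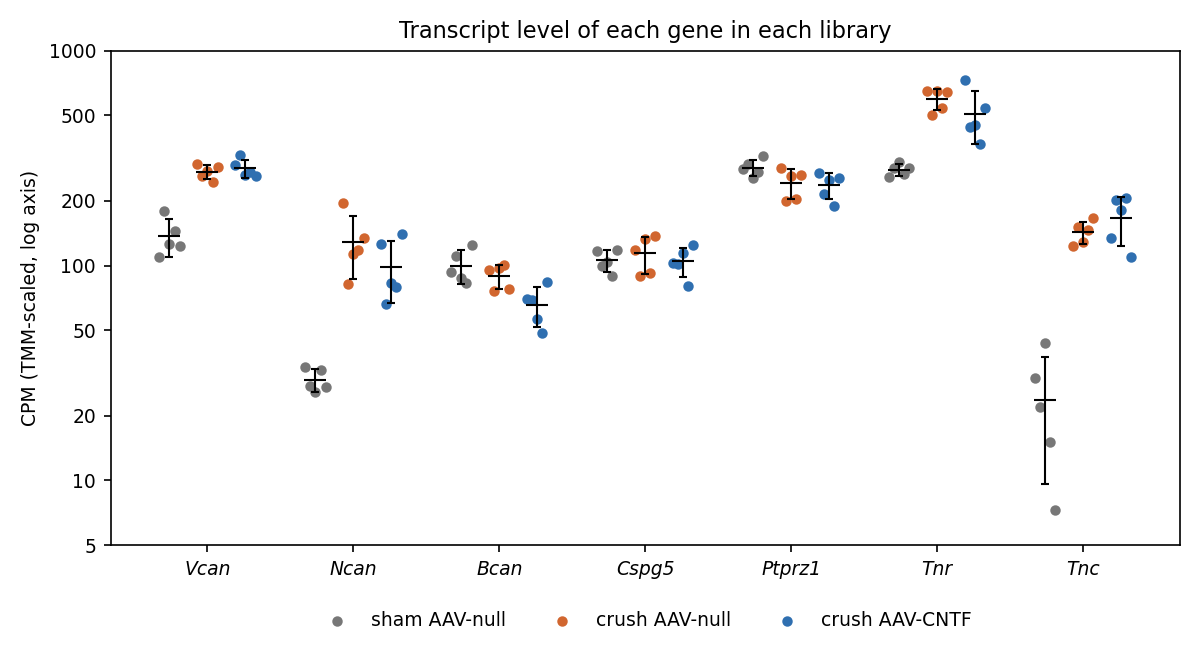
Level of each of the 7 genes in every library, in CPM after TMM scaling, by group (sham AAV-null, crush AAV-null, crush AAV-CNTF); points are libraries and the bars show the mean and SD of 5. Vcan, Ncan, Tnr and Tnc lie above the sham libraries in every crushed nerve, while Bcan, Cspg5 and Ptprz1 overlap.

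Cspg5 and Ptprz1 encode the proteoglycans with a membrane-spanning form. The gene counts do not tell that form of Ptprz1 from the secreted phosphacan. Cspg5 (ENSMUSG00000032482.9, chr9:110243783-110262576, plus strand) ran from 89.18 to 118.4 CPM in sham (median 104.2), from 89.34 to 136.7 in crush AAV-null (median 117.6) and from 80.46 to 124.6 in crush AAV-CNTF (median 103.1). Its log2 difference between crush and sham with AAV-null was 0.11, with a 95% interval of -0.18 to 0.39 (adjusted p = 0.619, edgeR), so a change of the size seen for Vcan lay outside the interval. Ptprz1 (ENSMUSG00000068748.7, chr6:22875502-23052916, plus strand) ran from 255.5 to 322.9 CPM in sham (median 282.3), from 199.4 to 285.3 in crush AAV-null (median 261.5) and from 189.7 to 270.5 in crush AAV-CNTF (median 249.8). It was at -0.23 (95% interval -0.47 to 0.01, adjusted p = 0.15, edgeR) in crush AAV-null and at -0.27 (-0.51 to -0.03, adjusted p = 0.0788) in crush AAV-CNTF, each against sham. The second of these passed the test without crush AAV-CNTF replicate 2 (-0.33, adjusted p = 0.0464).

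Tenascin-R is made by oligodendrocyte lineage cells and binds the lectin end of lecticans and the adhesion molecule contactin. Its gene (ENSMUSG00000015829.13) spans chr1:159523769-159931729, plus strand. Tnr stood at 259.4, 283.3, 304.2, 266.7 and 284.1 CPM in sham replicates 2 to 6, and at 648.4, 502.3, 648.7, 543.6 and 643.4 CPM after crush with AAV-null. After crush with AAV-CNTF it stood at 734.1, 443.7, 453.1, 368.0 and 544.2 CPM. Every crushed nerve was above the sham nerves, and the AAV-CNTF group spread more widely, with replicate 2 highest and replicate 5 lowest. The log2 fold change against sham was 1.10 ± 0.14 (SE, adjusted p = 4.79e-06, edgeR) with AAV-null and 0.86 ± 0.14 (adjusted p = 5.88e-05) with AAV-CNTF.

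Tenascin-C is the tenascin of development, wounds and scars, and its gene (ENSMUSG00000028364.15) lies at chr4:63959785-64047015, minus strand. Tnc stood at 29.94, 22.01, 43.47, 15.07 and 7.286 CPM in sham replicates 2 to 6, the widest relative spread of the 7 genes (59.1% coefficient of variation). It reached 123.0, 150.4, 129.4, 146.0 and 165.8 CPM after crush with AAV-null. After crush with AAV-CNTF it stood at 133.7, 202.0, 181.1, 205.5 and 109.2 CPM. Every crushed nerve was above the highest sham nerve, replicate 4. The log2 fold change against sham was 2.60 ± 0.31 (SE, adjusted p = 2.02e-06, edgeR) with AAV-null, and 2.82 ± 0.31 (adjusted p = 6.62e-07), or 7.06-fold, with AAV-CNTF. Leaving out 1 library at a time moved the AAV-null value between 2.37 and 2.95.

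Between the crushed groups, which address the effect of CNTF, 0 of the 7 genes passed the test. Over all genes 0.0564% passed, 8 of 14194 (0.0423% higher, 0.0141% lower), while 1091 had an unadjusted p under 0.05, among them Bcan alone of the 7. DESeq2 and the other tools run also passed 0 of the 7. The 95% intervals of the log2 difference, AAV-CNTF minus AAV-null, were -0.18 to 0.29 for Vcan, -0.80 to 0.05 for Ncan and -0.52 to 0.06 for Tnr. They were -0.40 to 0.16 for Cspg5, -0.28 to 0.20 for Ptprz1 and -0.38 to 0.82 for Tnc. The interval for Tnc is the widest and that for Vcan the narrowest of these 6. All 7 genes overlapped between the crushed groups, where 1.55% of all genes did not (0.838% higher, 0.712% lower). Against sham, 5 of the 7 genes passed in the AAV-CNTF group, beside 31.3% of all genes, with 4 higher (17% of all genes) and Bcan lower (14.3%). The same 4 did not overlap with sham, beside 23% of all genes (11.9% higher, 11.2% lower).

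**Figure D2:**
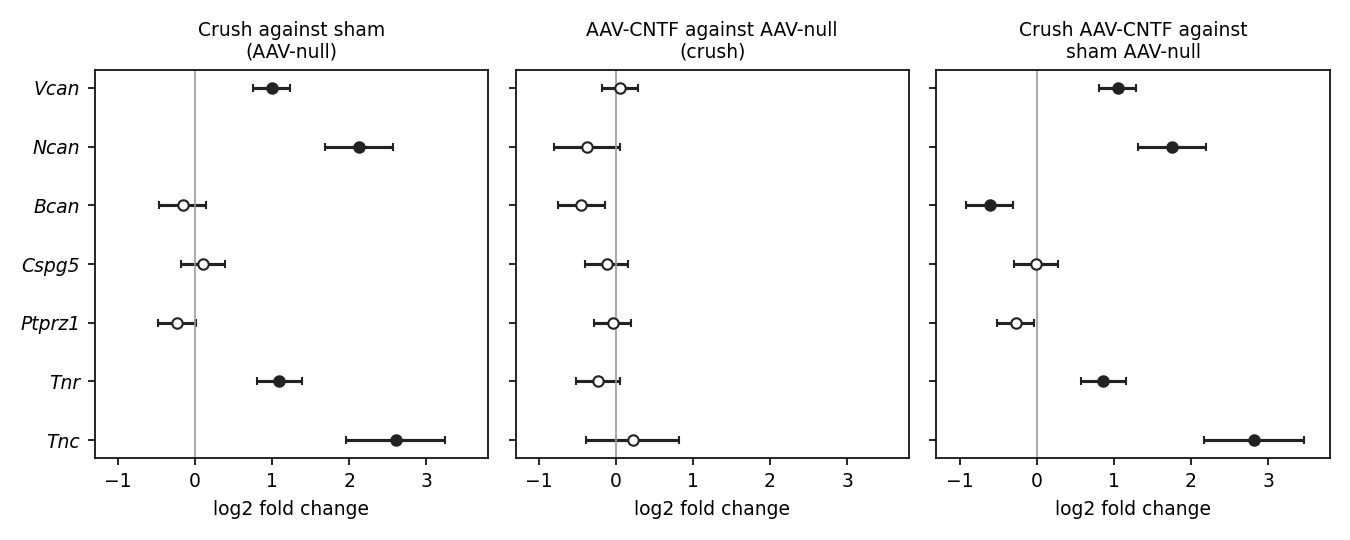
Log2 fold change of each gene in the 3 comparisons, with 95% intervals from edgeR over 15 libraries; filled points passed an adjusted p of 0.05 and open points did not. Tnc and Ncan lie farthest from 0 in both comparisons with sham, and all 7 points are open between the crushed groups.

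To compare the genes with each other, the authors' FPKM (fragments scaled by transcript length and library depth) was used, since a count grows with transcript length. In sham nerves the mean levels in FPKM were 43.7 for Cspg5, 42.6 for Ptprz1 and 40.5 for Bcan, which overlapped. Tnr at 23.9 and Vcan at 18.9 followed, lower than Bcan in all 5 libraries, and Ncan at 3.86 and Tnc at 3.18 were lowest. After crush with AAV-null, Tnr had the highest mean at 58.8 FPKM, ahead of Cspg5 at 54.1, Bcan at 43.5, Ptprz1 at 40.6 and Vcan at 38.7, with each neighbour in this order overlapping. Tnc at 21.6 and Ncan at 18.9 remained the lowest, both apart from Vcan. After crush with AAV-CNTF all neighbours in the order overlapped, from Cspg5 at 50.6 and Tnr at 50.4 through Ptprz1 at 39.2, Vcan at 38.6, Bcan at 28.5 and Tnc at 25.3 to Ncan at 14.5 FPKM.

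The make-up of the lectican group changed with these levels. Bcan held 64.1% ± 6.75 (SD, n = 5) of the summed FPKM of the 3 lecticans in sham nerves, 43.2% ± 2.45 in crush AAV-null and 34.4% ± 5.12 in crush AAV-CNTF nerves. Its highest share in a crush AAV-null library, 45.8%, was below its lowest in sham, 53.7%. Ncan held 6.24% ± 1.34, 18.5% ± 2.92 and 17.8% ± 4.07 in the same order. Vcan held 29.7% ± 6.40, 38.4% ± 2.5 and 47.8% ± 6.62, and its sham and crush AAV-null ranges overlapped. Of the 2 tenascins, Tnc held 11.5% ± 5.84, 27.1% ± 4.30 and 33.8% ± 10.6 of the summed FPKM. These shares are descriptions with no test, and they depend on the transcript lengths in the FPKM: by CPM, which does not divide by length, Bcan held 37.6%, 18.4% and 14.5%.

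**Figure D3:**
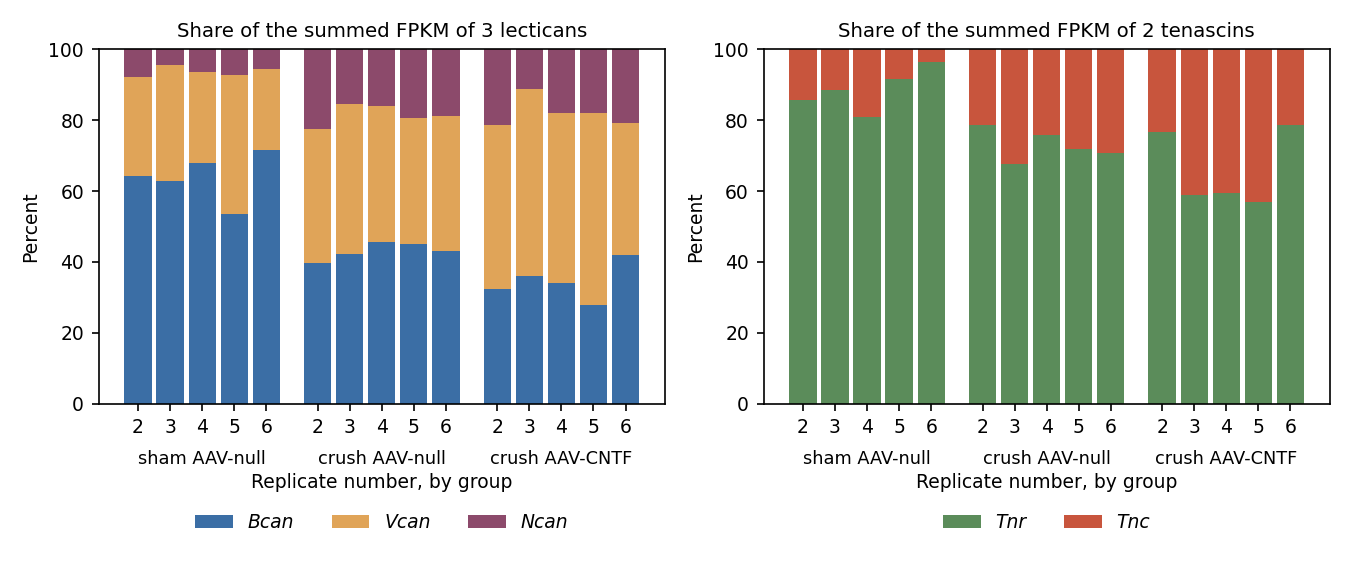
Percent of summed FPKM held by each lectican (Vcan, Ncan, Bcan) and by Tnc of Tnc and Tnr, per library and by group. The mean and SD of the 5 libraries of each group are given in the text. The Bcan share is highest in sham, between 53.7% and 71.6%, and the Tnc share is lowest there, between 3.73% and 19.2%.

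Splice forms differ in length for several of these genes, most of all for Vcan, whose coding transcripts in GENCODE M21 run up to 12427 bases. A mean transcript length per library was derived from the ratio of deposited count to deposited FPKM, scaled on 144 genes with 1 transcript. For Ncan, with 1 annotated transcript of 7195 bases, this gave 7.36 kb in each group. For Vcan it gave 7.22 ± 1.17 kb (SD, n = 5) in sham, 7.79 ± 0.719 kb in crush AAV-null and 8.05 ± 0.473 kb in crush AAV-CNTF nerves, and the groups overlapped. For Tnr it gave 11.38, 11.1 and 10.96 kb, for Tnc 7.16, 7.22 and 7.21 kb, and for Bcan 2.39, 2.27 and 2.56 kb. The groups overlapped for all 7 genes in all 3 comparisons. Between crush and sham with AAV-null, 0.295% of 10837 genes did not overlap with a longer value after crush and 0.471% with a shorter one. These shares were 0.323% and 0.268% for AAV-CNTF against AAV-null, and 0.554% and 1.16% for AAV-CNTF against sham. This length rests on RSEM's own split of reads among transcripts, and no test was run on it. The Ncan value exceeded its annotated 7195 bases, and the Tnc means exceeded the longest coding Tnc transcript, 7106 bases. The values therefore serve to compare groups and are not exact lengths.

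The genes whose deviations from their group means followed each member most closely over the 15 libraries were searched among 11684 genes of at least 5 CPM. For Tnc they were Lepr, the leptin receptor (Pearson r = 0.953), Aldh1a2, which makes retinoic acid (0.944), and Ube2c, a ubiquitin enzyme of mitosis (0.936). For Tnr they were Erbin (0.915), Shank2 (0.902) and Hipk1 (0.884). For Ptprz1 they were Scd1, a fatty acid desaturase (0.925), Agap1 (0.907) and Qk, an RNA-binding protein of myelinating glia (0.902). Cspg5 went with Zmat2 (0.912), Endod1 (0.895) and G6pdx (0.867), and Bcan with Nipal4 (0.882), Ipo13 (0.878) and Rubcn (0.855). The closest for Ncan were Kif5a (0.861), Arhgap35 (0.83) and Col4a6 (0.827), and among the closest for Vcan were Dot1l (0.82) and Dhx34 (0.816). These are the highest of many correlations, given as a description, and the libraries share depth and dissection differences. No member was among the 3 closest genes of another.

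Partner genes were then read from lists by role. The counts of each list stand beside 14.7% of all genes higher and 12.9% lower after crush with AAV-null. Against sham with AAV-CNTF these shares were 17% and 14.3%. Among 13 other core proteins tested, 6 rose and 4 fell after crush with AAV-null, with a median log2 change of 0.37 beside 0.0048 over all genes. Cspg4, the NG2 proteoglycan, went from 64.3 ± 7.86 to 164 ± 23.2 CPM (SD, n = 5; log2 1.35, adjusted p = 1.77e-07, edgeR). The heparan sulfate proteoglycan Sdc1 (log2 1.76) and the small proteoglycan Bgn (1.45) had the largest rises. All 3 testicans fell, Spock3 by 1.94, Spock1 by 0.94 and Spock2 by 0.76 on the log2 scale. Neo1, a receptor that the list also holds, fell too. In the AAV-CNTF group 7 rose and 4 fell against sham. Between the crushed groups 0 of 13 passed by edgeR, and DESeq2 passed Spock2 alone (log2 -0.47, adjusted p = 0.0287). Acan and Tnn were not analysed here.

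Of 10 genes of hyaluronan synthesis, link proteins and receptors, 4 rose and 2 fell after crush with AAV-null (median log2 change 0.53). Hapln2, the link protein of nodes of Ranvier, fell from 162 ± 27.8 to 74.5 ± 15.2 CPM (log2 -1.12, adjusted p = 1.02e-05, edgeR) and stood at 56.2 ± 10.6 CPM with AAV-CNTF. Hapln2 (chr3:88021750-88027583, minus strand) is near Bcan on the same chromosome and strand, and Bcan did not pass that comparison. The hyaluronan receptor Cd44 rose from 141 to 264 CPM (log2 0.91, adjusted p = 3.45e-06), and the larger rises were Hmmr (4.37), a receptor and spindle protein, and Stab1 (3.16), a scavenger receptor of macrophages. Hmmr was near 0 in sham nerves, with 13, 6, 56, 0 and 1 expected counts in replicates 2 to 6 and no FPKM above 0.67, so it is listed through the crushed groups. Its value was 5.94 without sham replicate 4. On the per-length scale with a pseudocount of 1, Hmmr was at 2.25 and Stab1 at 2.08, both past the threshold in limma. Tnfaip6, which modifies hyaluronan, fell by 0.69. The synthase Has2 was low, at 1.24 ± 0.720 CPM in sham and 3.79 ± 2.64 in crush AAV-null, and its call (log2 1.61, adjusted p = 0.0461) was lost in 18 of the 27 alternative analyses, 12 of which left out 1 library, with values from 1.28 to 1.67. It held when crush AAV-null replicate 2 or 5 or sham replicate 4 was left out. Between the crushed groups 0 of 10 passed, and against sham in the AAV-CNTF group 5 rose and 2 fell. Hapln1 was not analysed here.

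Of 29 genes that build, sulfate or break down chondroitin sulfate chains, 16 rose and 1 fell after crush with AAV-null (median log2 change 0.59). The largest rises were lysosomal: Gusb, beta-glucuronidase, rose from 29.7 ± 9.89 to 184 ± 52.3 CPM (log2 2.63, adjusted p = 1.78e-08, edgeR) and the sulfatase Galns by 2.53, while the sulfatase Ids fell by 0.74. The chain-polymerising Chsy1 and Chpf rose as well. Of the sulfotransferases, Chst15 did not pass (log2 0.49, adjusted p = 0.142). Chst11, which makes chondroitin 4-sulfate, was at 84.95 CPM in sham and 109 in crush AAV-null (log2 0.36, adjusted p = 0.0413). Its call was lost without sham replicate 2, 5 or 6 or crush AAV-null replicate 3, 5 or 6, with values from 0.27 to 0.37. Upper quartile normalization lost it too (0.33, adjusted p = 0.0557, edgeR). In the AAV-CNTF group 12 rose and 4 fell against sham, among the latter Chst3 (-0.75) and Csgalnact1, which starts the chain (-0.92). On the per-length scale Chst3 did not pass (-0.55, adjusted p = 0.122, limma). The Csgalnact1 call was lost without AAV-CNTF replicate 4 (-0.81) or 5 (-0.81), or sham replicate 2 (-0.84) or 6 (-0.86). It was also lost on the per-length scale (-1.21, adjusted p = 0.0540, limma). Between the crushed groups 0 of 29 passed.

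Of 28 binding partners and receptors, 11 rose and 5 fell after crush with AAV-null (median log2 change 0.38). Ptprs, a receptor phosphatase that binds chondroitin sulfate, rose from 260 ± 32.1 to 397 ± 27.7 CPM (log2 0.61, adjusted p = 2.30e-05, edgeR), while the related Ptprd fell by 1.03. Of the growth factors that bind Ptprz1, Mdk rose from 36.7 to 79.2 CPM (log2 1.11, adjusted p = 0.000178) and Ptn did not pass (log2 0.20, adjusted p = 0.169). Contactin-1 (Cntn1), a partner of Tnr and Ptprz1, did not pass (log2 -0.39, adjusted p = 0.0757), and Cntn2 fell from 611 to 279 CPM (log2 -1.13). The largest rises at 5 CPM or more were Fn1, fibronectin (2.03), and Rtn4rl1, a Nogo receptor homolog (1.67). In the AAV-CNTF group 13 rose and 5 fell against sham, with Egfr, the EGF receptor (2.11), highest and Lingo1 (-1.23) and Cntn2 (-1.35) lowest at that level. On the per-length scale Egfr did not pass (1.37, adjusted p = 0.0710, limma). Between the crushed groups 0 of 28 passed.

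Of 17 proteases that cut lecticans and their inhibitors, 8 rose and 1 fell after crush with AAV-null (median log2 change 0.50). Adamts4, an aggrecanase that cuts Bcan and Vcan, fell from 240 ± 38.1 to 152 ± 19.6 CPM (log2 -0.66, adjusted p = 0.000214, edgeR). Adamts1, another versican-cutting protease, was at 59.7 ± 10.7 and 84.2 ± 15.4 CPM (log2 0.50, adjusted p = 0.0256). That call was lost without crush AAV-null replicate 3 (0.43) or 5 (0.42) or sham replicate 5 (0.42) or 6 (0.44). Adamts5 did not pass with AAV-null (log2 0.46, adjusted p = 0.0823) and rose against sham with AAV-CNTF (0.69, adjusted p = 0.00777). The macrophage elastase Mmp12 (4.44), the plasminogen activator Plau (2.81) and the inhibitor Timp1 (2.62) had the largest rises. Mmp12 had 0, 62, 33, 0 and 24 expected counts in sham replicates 2 to 6, and its value was 3.71 without crush AAV-null replicate 3 and 5.19 without sham replicate 3. In the AAV-CNTF group 12 rose and 2 fell, the latter Adamts4 (-0.90) and Adamts20 (-1.26). The Adamts20 call was lost without AAV-CNTF replicate 3 (-1.08), 5 (-1.14) or 6 (-1.20) or sham replicate 2 (-1.13) or 6 (-1.13). On the per-length scale Adamts20 did not pass either (-0.80, adjusted p = 0.331, limma). Between the crushed groups 0 of 17 passed. In that comparison 1091 of all 14194 genes reached an unadjusted p under 0.05 from edgeR. Beside this, it was reached by 4 of the 13 core proteins, 2 of the 10 hyaluronan genes and 4 of the 29 chain enzymes. Of the binding partners 3 of 28 reached it, and of the proteases 1 of 17. DESeq2 passed none of these partner genes but Spock2.

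**Figure D4:**
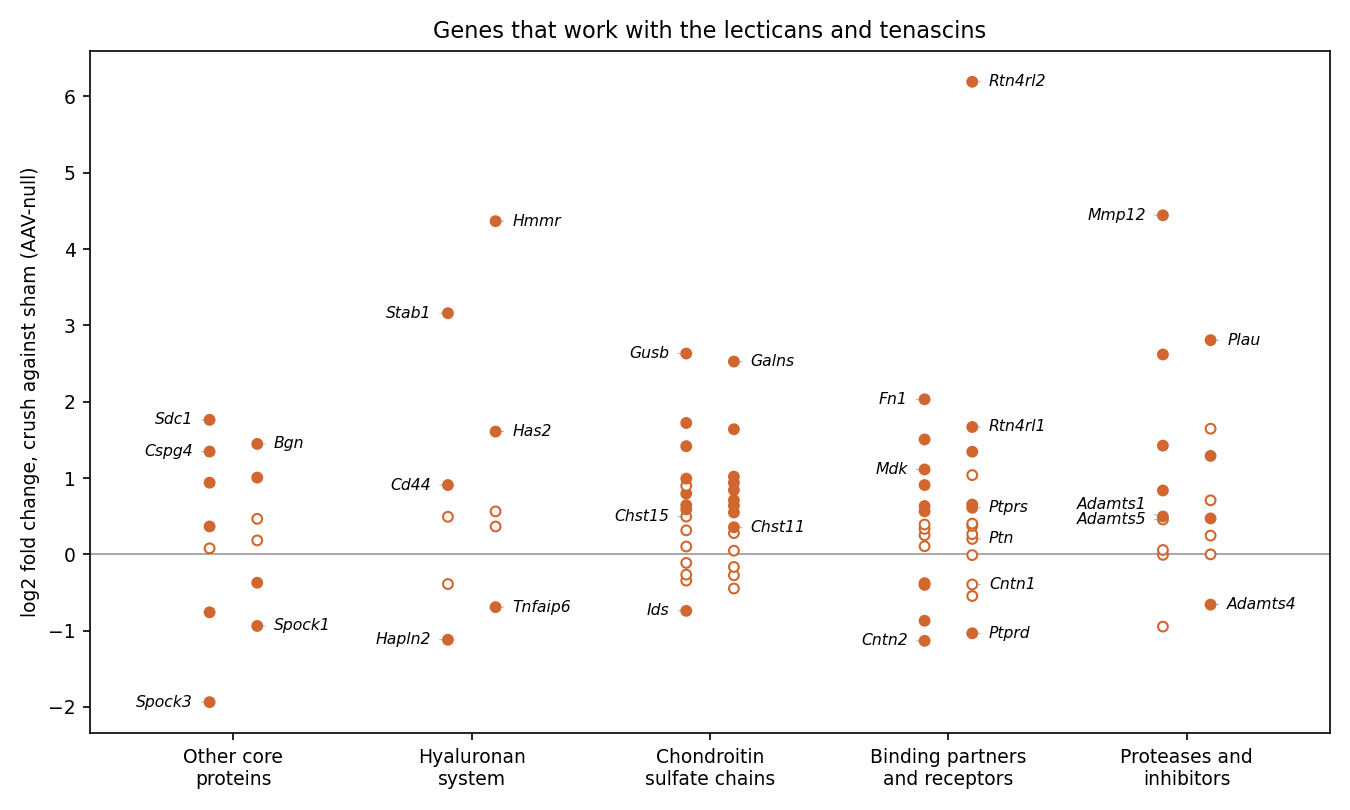
Log2 fold change, crush against sham with AAV-null, of every tested gene in the 5 partner lists; filled points passed an adjusted p of 0.05 in edgeR. Higher calls outnumber lower calls in each list, from 6 against 4 for the core proteins to 16 against 1 for the chain enzymes. Over all genes they do so too, with 14.7% higher and 12.9% lower. The top point, Rtn4rl2 at 6.19, had 2 counts over all 5 sham libraries.

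Markers of the cells in the nerve moved in the same comparison, in which 14.7% of all genes rose and 12.9% fell. Mature oligodendrocyte markers fell for 10 of 10 genes, with summed levels of 51240 to 65070 CPM in sham, 21590 to 30160 in crush AAV-null and 17740 to 25490 in crush AAV-CNTF nerves. Astrocyte markers fell for 8 of 10 genes, at 8093 to 9105, 4726 to 6513 and 5373 to 6775 CPM. Of 10 NG2 glia markers 4 rose, Cspg4, Matn4, Lhfpl3 and Gpr17, and 3 fell, Olig1, Olig2 and Sox10. Summed levels of the 10 were 1296 to 1511, 1230 to 1372 and 960.9 to 1410 CPM. Pdgfra, a defining receptor of NG2 glia, did not pass (log2 -0.15, adjusted p = 0.283). Microglia and macrophage markers rose for 9 of 10 genes, from 904.4 to 1242 CPM in sham to 2843 to 4058 in crush AAV-null, and 2165 to 3105 in crush AAV-CNTF nerves. Fibroblast markers rose for 5 of 10 genes, at 1359 to 3064, 4623 to 7919 and 4284 to 12560 CPM. Of 9 neuron and axon genes 4 fell, Nefl, Nefm, Nefh and Snap25, and 2 rose, Gap43 and Stmn2, with summed levels of 256.3 to 272.5, 113.5 to 149.5 and 102.5 to 169.8 CPM. The summed level of 6 skeletal muscle genes was 734.7 CPM in sham replicate 5 beside 83.4 to 109.8 CPM in the other sham nerves. Vcan, Ncan, Tnr and Tnc passed without that library too. All 8 cell division genes rose, at 11.27 to 34.58, 256.4 to 370.3 and 264 to 367 CPM. No tested marker was at 0 in all libraries of a group. The part of these cell populations in the changes of Vcan, Ncan, Tnr and Tnc was not tested.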

How the data were processed

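Total RNA of 15 optic nerves was sequenced. Per the submitters' processing notes, reads were handled with Trimmomatic 0.32, STAR 2.5.3a and RSEM 1.2.31 on mm10, and R 3.2.3 and DESeq2 are also named. Protocol notes name both a Nugen AnyDeplete and a TruSeq Stranded kit, and the sources used here do not tie libraries to kits. Per the file headers, the authors deposited RSEM expected counts per gene and library, FPKM, log2 fold changes and adjusted p-values. Genes in the table reach an FPKM of 1 or more in 4 or more libraries of a group, so low genes are not covered.

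Expected counts, 13.7% to 18.3% of them not whole, were rounded and fitted with edgeR 4.0.16 in R 4.3.3 (TMM, filterByExpr, quasi-likelihood, 1 model of 3 group means over 15 libraries). FPKM served to compare genes, for transcript lengths and, as log2 of FPKM plus 0.1 or 1, as an alternative. limma 3.58.1 and DESeq2 1.42.0 gave alternatives. The script was tested on simulated data. Variation among libraries (biological coefficient of variation 0.371 over all genes) limits precision, and so do low counts for genes such as Has2, Mmp12 and Hmmr. The p-values set differences between groups against the spread between these libraries, labelled biological replicates. Replicate numbers were not treated as pairs. The deposited fold changes gave the same calls as edgeR for all 7 genes in all 3 comparisons.

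The genes, lists and tests were chosen with earlier results of these data known. Named partners were a fixed set of 15 plus, per list and comparison, the 2 largest changes in each direction past the threshold with a group mean of at least 5 CPM. Genes given without a value, Neo1, Chpf, Spock2 and Timp1 with AAV-null and the plotted Rtn4rl2 were named outside that rule, after their values were seen. The transcript lengths and the motif GGGCGG were added after the data were seen. Some genes sit in 2 lists (such as Dcn, Fbln1 and Cspg4), and Cemip2 and Tmem2 are names of 1 gene. Some genes that the rule selects are not reported here.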

Additional observations from a re-analysis of the deposited data

How the results depend on the processing

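Across 27 alternatives (normalization, filters, tools, replicate block, single libraries left out), Vcan, Ncan, Tnr and Tnc stayed higher and past the threshold against sham in both crushed groups, and 0 of 7 genes passed between the crushed groups. Bcan stayed lower and past the threshold in AAV-CNTF against sham, with adjusted p up to 0.0497. Ptprz1 in that comparison passed with upper quartile normalization (-0.32), the replicate block (-0.29), limma-voom (-0.29) and without crush AAV-CNTF replicate 2 (-0.33), so 6 genes passed there. Values that passed no test changed sign in some alternatives: Bcan in crush against sham (0.11 on FPKM), Cspg5 in AAV-CNTF against sham (up to 0.23), and Vcan (-0.0036) and Ptprz1 (0.028) between the crushed groups.

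Of 39 partner genes not called in crush against sham, 16 passed in at least 1 alternative, most often Papss1 (11), Plat (5) and Cntn1 (4). The calls among all genes in that comparison ran from 3168 to 4146 over the alternatives, beside 3912 in the main fit. The matching share over all uncalled genes was not counted. Over all genes, the 8 calls between the crushed groups became 1 with only the libraries compared, 16 with the replicate block, 78 with DESeq2, 5 with limma-voom, 4 on FPKM with a pseudocount of 0.1 or 1, and 2 without AAV-CNTF replicate 4 and AAV-null replicate 6 of the crushed nerves, a pair set apart in an earlier analysis. On the first 2 principal components here, AAV-CNTF replicate 4 did not stand apart. Leaving out single libraries gave 1 (without crush AAV-null replicate 2 or 4) to 41 (without crush AAV-CNTF replicate 6). The cause was not tested. Same-number libraries correlated at -0.0525 to 0.1127 over 15 pairs, and the closest library was looked up in 1 direction only. In 3 pairs it had the same number, out of 5 candidate libraries in each search, so such matches also arise by chance. All 3 were between the crushed groups, for crush AAV-null replicates 2 (0.1127), 3 (0.0343) and 5 (0.0353) searched among AAV-CNTF libraries. The labels name no pairs, and the numbers were not read as pairs. The replicate block changed no other call of the 7 genes. By CPM, the lectican shares in sham, crush AAV-null and crush AAV-CNTF were 51.2%, 56% and 63.6% for Vcan, 37.6%, 18.4% and 14.5% for Bcan, and 11.2%, 25.6% and 21.9% for Ncan. Tnc then held 7.58%, 19.5% and 25.6% of the tenascins.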

Other observations

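Within the crush AAV-CNTF group, several of the 7 genes and the marker lists differed between libraries, which all carry the same label. Tnc was at 133.7 and 109.2 CPM in replicates 2 and 6 and at 202.0, 181.1 and 205.5 CPM in replicates 3, 4 and 5. Ncan was at 125.5 and 139.7 CPM in replicates 2 and 6 and at 66.06, 83.01 and 79.62 CPM in the others, and Tnr at 734.1 and 544.2 against 443.7, 453.1 and 368.0 CPM. Tnc held 23.2% and 21.3% of the summed FPKM of both tenascins in replicates 2 and 6, and 41.1%, 40.5% and 43% in replicates 3, 4 and 5. The summed fibroblast markers stood at 4284 and 5999 CPM in replicates 2 and 6 and at 10820, 8382 and 12560 CPM in replicates 3, 4 and 5. The summed NG2 glia markers stood at 1410 and 1362 CPM in replicates 2 and 6 and at 1127, 984.2 and 960.9 CPM in the others. This division was not particular to these lists. Mature oligodendrocyte markers stood at 25470 and 25490 CPM in replicates 2 and 6 and at 23220, 21780 and 17740 CPM in the others. Neuron and axon markers were also higher in replicates 2 and 6, and endothelial and skeletal muscle markers lower. Astrocyte, microglia and macrophage, Schwann cell and cell division sums did not divide this way. In the crush AAV-null group the fibroblast markers were at 4623, 6432, 4894, 7919 and 7767 CPM in replicates 2 to 6. Tnc was lowest in replicates 2 and 4 as well (123.0 and 129.4 CPM) but highest in replicate 6 (165.8 CPM). In sham nerves the fibroblast markers were at 1904, 2588, 3064, 1883 and 1359 CPM. They were highest in replicate 4 and lowest in replicate 6, as Tnc was, while replicates 2 and 3 ranked differently. The NG2 glia markers were at 1372, 1230, 1368, 1307 and 1305 CPM in crush AAV-null nerves, lowest in replicate 3, as Ncan and Tnr were. Astrocyte (4726 CPM), mature oligodendrocyte (21590 CPM), endothelial (388.4 CPM) and Schwann cell (270.1 CPM) sums were lowest in that library too. In sham nerves the NG2 glia markers were at 1485, 1455, 1296, 1308 and 1511 CPM. There they were lowest in replicate 4, where Ncan was lowest (25.92 CPM) and Tnr highest (304.2 CPM). The part of these marker levels in the values of Tnc, Tnr and Ncan was not tested.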
